A study of Mus musculus with 12 samples.

Results

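The exon pairs listed as mutually exclusive in genes other than Ttn and Neb numbered 517 in 376 genes on 20 chromosomes, and the same 517 pairs stood in the tables of both muscles. They were defined by event class and gene symbol, as all such entries among 2423 listed splicing events for the gastrocnemius and 2416 for the quadriceps. A further 137 and 136 listed pairs lay in Ttn and Neb, the giant sarcomeric genes, and were set aside. The muscles came from the left hind limb of 6 female mice, of which 3 spent 9 weeks aboard the International Space Station and 3 stayed at Kennedy Space Center in the same kind of housing. The mice were 30 weeks of age when the experiment began and all were control animals injected with phosphate-buffered saline. The sample labels give their strain as C57BL/6, whereas the study's methods give BALB/c. Carcasses were frozen and later thawed for dissection, and polyadenylated RNA of each muscle was sequenced as stranded single-end reads of 50 bases, which made 12 libraries in 4 groups of 3 (ground gastrocnemius, flight gastrocnemius, ground quadriceps and flight quadriceps). Both muscles came from the same mice, but the junction lists do not name their samples, so a sample is known here by its group and its position in the list.

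In mutually exclusive splicing, a transcript keeps a single exon of a neighbouring pair. Such pairs often arose by duplication, so that a protein swaps a short stretch for a related version of it, and the choice is set by tissue and developmental stage through RNA-binding proteins. Skeletal muscle is known for such switches in troponin T, tropomyosin, the MEF2 transcription factors and the mitochondrial phosphate carrier, which tune calcium sensitivity, gene regulation and energy supply. Inclusion is given below as percent spliced in (PSI), a fraction between 0 and 1. PSI is the length-corrected share of junction reads that support the exon coming first in the transcript, and 1 minus PSI is the share of its partner. ΔPSI is a difference between group means, and values after ± are SD of the 3 samples.

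Depth differed widely between pairs. Junction reads summed over the 517 pairs ran from 231927 to 238278 per sample in ground gastrocnemius, from 250809 to 327998 in flight gastrocnemius, from 257439 to 410131 in ground quadriceps and from 295906 to 383275 in flight quadriceps. A pair was tested within a muscle when its mean exceeded 10 junction reads on the ground and in flight, unless PSI stayed within 0.05 of either end of the scale throughout. This left 474 pairs in 340 genes for the gastrocnemius, with 40 set aside for reads and 3 for extreme PSI, and 449 pairs in 325 genes for the quadriceps, with 62 and 6 set aside. The median tested pair had a mean of 40.4 junction reads per sample in the gastrocnemius and 39.2 in the quadriceps. Precision followed depth. In the gastrocnemius, the median SD of PSI was 0.102 over the 101 tested pairs with a mean of at most 20 reads, 0.0667 over the 256 pairs with 20 to 100, 0.0327 over the 96 pairs with 100 to 1000 and 0.0205 over the 21 pairs with more. The matching medians in the quadriceps were 0.167, 0.0911, 0.0381 and 0.0223. A ΔPSI of 0.1 in a pair with few reads was therefore within the spread of a group, while in the most deeply read pairs it was several times that spread.

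The third sample of ground quadriceps stood apart from the others. It had 0 junction reads in 20 of the 517 pairs, where every other sample had reads in all of them, and the median SD of PSI was 0.0881 in its group against 0.0582 in ground gastrocnemius, 0.0583 in flight gastrocnemius and 0.069 in flight quadriceps. For each comparison that includes this sample, the total of called pairs is given below with and without it.

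Few of the listed pairs were annotated as exclusive. In 414 pairs (80.1%), at least 1 GENCODE transcript holds both exons next to each other between the same flanking exons. Only 25 pairs (4.84%) in 23 genes met the textbook arrangement, with annotated transcripts for either exon alone and none for both or neither between the flanks, and 78 pairs were of other kinds. The class name of the tables thus describes how reads were counted more than how most of these genes are annotated. In a transcript with both exons, reads over the junction into the first exon and out of the second exon can support either form, and the lists do not separate these junctions. PSI of such a pair is therefore the balance of junction reads between the exons, not a pure choice. Of the 517 pairs, 175 shared an exon with another pair of the set, and 203 had at least 1 exon that also stood in the skipped-exon tables, 78 of them both.

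The annotation classes also differed in sequence, which is given as a description with no test made. The median identity of the 2 aligned exons was 57.2% in the 25 exclusive pairs, 47.7% in pairs held by 1 transcript and 48.0% in the others. Identity passed 60% in 9 of the 25 exclusive pairs and in 15 of the 396 aligned pairs that share a transcript, with 14 of 74 among the others. Both exons had the same length in 28% of exclusive pairs, 4.11% of shared-transcript pairs and 17.9% of the others, and lengths differed by a multiple of 3, which keeps the reading frame after a swap, in 80%, 49.8% and 69.2%. Over all 517 pairs, the exons measured 12 to 9265 bases with medians of 102 for the first exon and 98 for the second, and both were coding in 491. The highest identity, 97.4%, belonged to a 39-base pair of Trdn whose exons are held together by annotated transcripts.

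**Figure D1:**
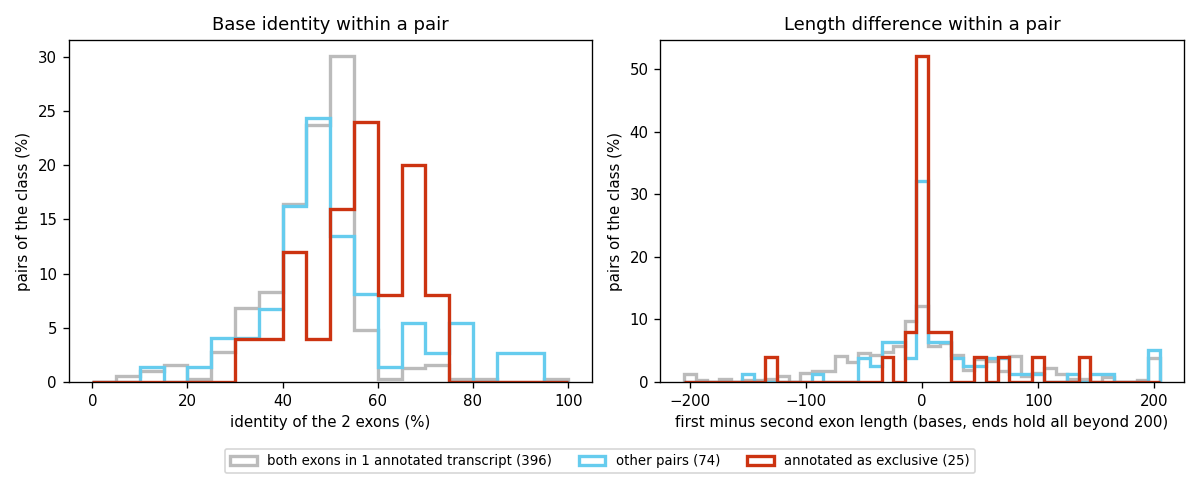
Base identity of the 2 exons of a pair (left, percent) and the first minus the second exon's length (right, bases), as the percent of pairs in each annotation class; the legend gives the number of pairs with an alignment. The 25 pairs annotated as exclusive have a median identity of 57.2% against 47.7% in pairs held by 1 transcript, and more of them have exons of equal length.

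The exons below belong to pairs of equal length, printed 5′ to 3′ on the coding strand of GRCm38 (mm10), with capitals at the bases that differ from the partner at the same position. They show partner exons side by side, compared without gaps. All lie in coding sequence. The 41-base pair of Tnnt3, the fast skeletal troponin T, lies at chr7:142513665-142513705 and chr7:142514326-142514366 on the plus strand near the end of the coding region, differs at 23 positions, and is shown because it carried the clearest quadriceps result. P4ha1, a catalytic subunit of collagen prolyl 4-hydroxylase, has a 71-base pair at chr10:59354340-59354410 and chr10:59355350-59355420 (plus strand, 29 positions differing). Mapk8, the stress kinase JNK, has a 72-base pair in its kinase domain at chr14:33390673-33390744 and chr14:33390242-33390313 (minus strand, 27 differing). Rab6a, a GTPase of Golgi transport, has a 106-base pair at chr7:100629666-100629771 and chr7:100629838-100629943 (plus strand, 30 differing). Dnm2, the membrane-severing GTPase dynamin, has a 139-base pair at chr9:21478899-21479037 and chr9:21480407-21480545 (plus strand, 44 differing).
Tnnt3 first exon: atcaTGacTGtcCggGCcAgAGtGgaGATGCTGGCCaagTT
Tnnt3 second exon: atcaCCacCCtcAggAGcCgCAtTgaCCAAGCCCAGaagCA
P4ha1 first exon: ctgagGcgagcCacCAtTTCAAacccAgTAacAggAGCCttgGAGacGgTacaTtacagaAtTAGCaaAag
P4ha1 second exon: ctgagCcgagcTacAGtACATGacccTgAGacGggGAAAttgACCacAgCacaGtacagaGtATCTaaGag
Mapk8 first exon: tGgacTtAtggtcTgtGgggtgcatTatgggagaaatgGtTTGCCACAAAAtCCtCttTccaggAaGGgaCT
Mapk8 second exon: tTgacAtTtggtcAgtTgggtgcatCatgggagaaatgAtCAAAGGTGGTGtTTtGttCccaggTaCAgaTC
Rab6a first exon: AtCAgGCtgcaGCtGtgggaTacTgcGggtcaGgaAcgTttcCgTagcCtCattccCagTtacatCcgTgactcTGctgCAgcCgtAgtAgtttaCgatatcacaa
Rab6a second exon: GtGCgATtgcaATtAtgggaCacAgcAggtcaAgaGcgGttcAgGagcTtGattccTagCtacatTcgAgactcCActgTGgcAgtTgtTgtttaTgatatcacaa
Dnm2 first exon: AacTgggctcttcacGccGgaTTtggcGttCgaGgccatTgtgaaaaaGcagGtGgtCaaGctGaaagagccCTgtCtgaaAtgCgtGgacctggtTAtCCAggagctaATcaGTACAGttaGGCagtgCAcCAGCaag
Dnm2 second exon: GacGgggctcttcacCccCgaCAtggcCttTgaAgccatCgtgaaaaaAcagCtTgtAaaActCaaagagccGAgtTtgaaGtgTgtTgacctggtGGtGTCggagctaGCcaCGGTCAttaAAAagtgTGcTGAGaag

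The next exons come from pairs with unequal lengths, so no capitals are used. The first 3 pairs carried gastrocnemius results, and Slc25a3, the mitochondrial phosphate carrier, is shown as an exclusive pair with a near-complete choice. Tnnt3 has exons of 78 and 114 bases at chr7:142511465-142511542 and chr7:142512036-142512149 (plus strand). Sorbs2, a Z-disc adaptor that binds actin regulators, has exons of 159 and 57 bases at chr8:45782802-45782960 and chr8:45785269-45785325 (plus strand). Pdlim7, a PDZ-LIM scaffold of the actin cytoskeleton, has exons of 119 and 17 bases at chr13:55508208-55508326 and chr13:55507864-55507880 (minus strand). Slc25a3 has exons of 125 and 122 bases at chr10:91122207-91122331 and chr10:91121922-91122043 (minus strand), 66.4% identical after alignment.
Tnnt3 first exon: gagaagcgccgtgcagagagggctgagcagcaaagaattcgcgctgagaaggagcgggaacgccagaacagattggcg
Tnnt3 second exon: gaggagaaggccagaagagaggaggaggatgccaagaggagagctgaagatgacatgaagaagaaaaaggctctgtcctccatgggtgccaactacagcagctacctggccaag
Sorbs2 first exon: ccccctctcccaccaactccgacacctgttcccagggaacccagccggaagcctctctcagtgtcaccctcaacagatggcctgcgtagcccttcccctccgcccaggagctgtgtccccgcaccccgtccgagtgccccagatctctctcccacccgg
Sorbs2 second exon: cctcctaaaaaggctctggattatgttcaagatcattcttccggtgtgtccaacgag
Pdlim7 first exon: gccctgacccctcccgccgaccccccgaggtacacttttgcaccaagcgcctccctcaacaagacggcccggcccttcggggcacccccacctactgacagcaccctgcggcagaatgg
Pdlim7 second exon: gtgcagacctctgacaa
Slc25a3 first exon: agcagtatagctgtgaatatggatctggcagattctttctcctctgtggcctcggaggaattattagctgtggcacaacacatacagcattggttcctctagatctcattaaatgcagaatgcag
Slc25a3 second exon: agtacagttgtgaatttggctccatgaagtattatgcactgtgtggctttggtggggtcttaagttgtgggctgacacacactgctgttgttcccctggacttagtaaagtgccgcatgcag

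Flight against ground was first compared in the gastrocnemius, to ask which exon pairs changed their balance in microgravity. Of the 474 tested pairs 5 changed, 3 with higher and 2 with lower PSI of the first exon, and they lay in 4 genes of the contractile apparatus and the Z-disc: Tnnt3 (2 pairs), Xirp2, Sorbs2 and Pdlim7. For all 5, an annotated transcript holds both exons between the same flanks. Their PSI is therefore a balance of junction reads between the exons, not a pure choice. A change was called at an adjusted p under 0.05 with an absolute ΔPSI over 0.05, by a quasi-binomial test with limma's moderated dispersion that was adjusted over all skipped and mutually exclusive exons. The share called was 1.05% of these pairs and 2.6% of all 2118 tested events, so the pairs were no richer in calls than the rest. At an unadjusted p under 0.05 there were 59 pairs (12.4%) against 11.2% of all events. The mutually exclusive pairs of Ttn and Neb gave 29 calls in 135 tested, and skipped exons 21 in 1509. The same groups differed in the sum of smooth muscle markers, with means of 179 TPM on the ground and 204 TPM in flight.

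The smallest p belonged to the 78- and 114-base exons of Tnnt3, which encode parts of the conserved core of troponin T. PSI of the 78-base exon was 0.231, 0.254 and 0.259 in the ground samples and 0.188, 0.155 and 0.137 in the flight samples, on 22327 to 39750 junction reads per sample. Every flight sample lay below every ground sample. Mean PSI fell by 0.0878, from 0.248 ± 0.015 to 0.16 ± 0.026 (adjusted p = 1.93e-06). Of the annotated transcripts, 24 hold both exons between these flanks and 0 hold either alone, so the value is a balance of junction reads within shared transcripts. In the quadriceps the same pair measured 0.189 ± 0.0307 on the ground and 0.148 ± 0.0186 in flight, and the groups overlapped. That difference had an adjusted p of 0.00921, but a ΔPSI of -0.0415 is under the required size, and the flight effect did not differ between the muscles past the threshold (interaction adjusted p = 0.743, ΔPSI difference 0.0463).

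Xirp2 encodes an actin-binding protein of the Z-disc and its neighbourhood, and its pair joins an exon of 9265 bases, which holds most of the coding sequence, with an exon of 134 bases (chr2:67507909-67517173 and chr2:67519220-67519353). PSI of the long exon was 0.474, 0.527 and 0.531 on the ground and 0.427, 0.382 and 0.36 in flight, on 613 to 1086 reads. The flight samples lay below all ground samples. The mean fell by 0.121, from 0.511 ± 0.0316 to 0.39 ± 0.0343 (adjusted p = 0.0147). In the quadriceps the means were 0.484 ± 0.0416 and 0.49 ± 0.0196, and the difference between the muscles was not past the threshold (interaction adjusted p = 0.428, difference 0.128).

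PSI of the 159-base exon of Sorbs2 was 0.633, 0.413 and 0.552 on the ground and 0.649, 0.821 and 0.9 in flight, on 29 to 56 reads. The lowest flight sample lay just above the highest ground sample. The mean rose by 0.258, from 0.532 ± 0.111 to 0.79 ± 0.129 (adjusted p = 0.0223), the largest change of the 5 and the one with the fewest reads. The 5 listed pairs of Sorbs2 are built from only 3 exons, so they are not independent, and 4 of the 5 had higher PSI in flight with 4 at an unadjusted p under 0.05. In the quadriceps the called pair measured 0.675 ± 0.0244 and 0.649 ± 0.111.

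PSI of the 119-base exon of Pdlim7 was 0.0776, 0.0781 and 0.073 on the ground and 0.116, 0.19 and 0.192 in flight, on 153 to 179 reads. All flight samples were higher, and the ground samples were nearly equal. The mean rose by 0.0898, from 0.0762 ± 0.00284 to 0.166 ± 0.043 (adjusted p = 0.0223). In the quadriceps PSI was 0.0756 ± 0.0292 on the ground and 0.147 ± 0.0164 in flight, again without overlap, with an adjusted p of 0.436 for a ΔPSI of 0.0717. The remaining call was a pair of short Tnnt3 exons of 18 and 15 bases in the variable N-terminal region (chr7:142504048-142504065 and chr7:142505516-142505530). Its PSI was 0.452, 0.465 and 0.456 on the ground and 0.555, 0.596 and 0.566 in flight. All flight samples were higher, and the mean rose by 0.114 from 0.458 ± 0.00673 to 0.572 ± 0.0215 (adjusted p = 0.0493). In the quadriceps it measured 0.383 ± 0.0511 and 0.416 ± 0.0394.

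**Figure D2:**
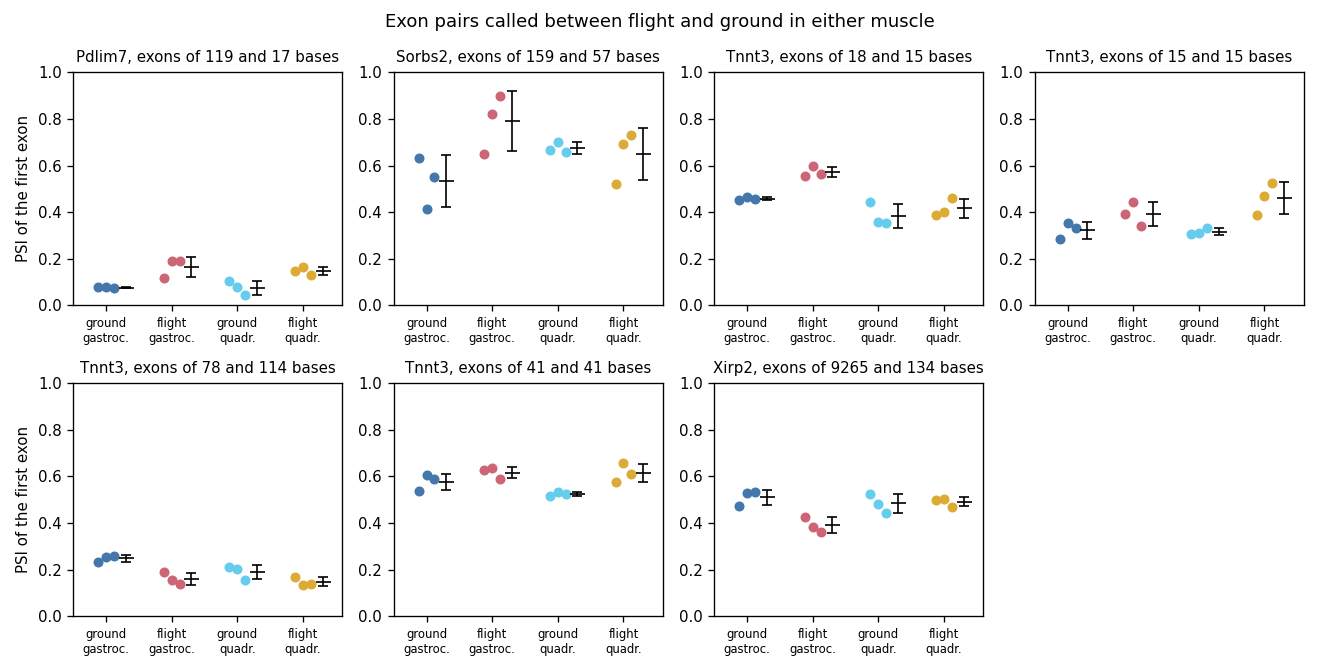
PSI of the first exon (fraction, 0 to 1) of the 7 pairs called between flight and ground in either muscle, by group; points are the 3 samples of a group and the bar beside them is the mean with SD. The 78-base exon of Tnnt3 and the long exon of Xirp2 are lower in flight gastrocnemius, while the exons of Sorbs2 and Pdlim7 and the 18-base exon of Tnnt3 are higher there.

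All 5 gastrocnemius calls rested on the test on read counts. A limma fit with a trend on the log2 ratio of the reads called 0 of the 474 pairs, with 34 at an unadjusted p under 0.05, and gave the first Tnnt3 pair an adjusted p of 0.0634. Leaving out the ground sample at position 1 or 2 left 3 calls, and leaving out the one at position 3 left 1, the 78- and 114-base pair of Tnnt3, which kept its call in all 6 such runs. Xirp2 lost its call in 3 of the 6, Sorbs2 in 4, Pdlim7 in 5 and the short-exon Tnnt3 pair in 5. The pairs next in order did not pass. Tpm1, whose tropomyosin lies along the thin filament, measured 0.686 ± 0.00428 and 0.734 ± 0.0447 (adjusted p = 0.065, ΔPSI 0.0478, all 3 flight samples above the ground samples) and passed without flight sample 1 (adjusted p = 0.00827). Cct7, a subunit of the chaperonin that folds actin, measured 0.698 ± 0.0777 and 0.821 ± 0.0649 (adjusted p = 0.109). Bin1, which shapes the T-tubule membrane, measured 0.0779 ± 0.0606 and 0.211 ± 0.0767 (adjusted p = 0.0881, ΔPSI 0.133, groups overlapping) and passed without flight sample 2 (adjusted p = 0.0376). It also passed with p adjusted over mutually exclusive exons alone. Usp47, a deubiquitinase, measured 0.29 ± 0.023 and 0.391 ± 0.0277. Agbl1, a carboxypeptidase that trims glutamate from tubulin, measured 0.475 ± 0.102 and 0.222 ± 0.0946, and Col11a2, a fibrillar collagen chain, 0.645 ± 0.136 and 0.907 ± 0.0228, both on at most 28 reads per sample.

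Over all tested pairs of the gastrocnemius, PSI was higher in flight in 263 and lower in 211, with a median ΔPSI of 0.00954 against 0.000788 over all events. The median absolute ΔPSI was 0.0489 against 0.0441. The 3 flight samples did not overlap the 3 ground samples in 91 of the 474 pairs (19.2%), beside 16.2% of all events. Of those 91, 5 were the called pairs.

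In the quadriceps, 2 of 449 tested pairs changed with flight, and both were Tnnt3 pairs whose first exon gained. That is 0.445% of the pairs, and 1.16% of all 2062 tested events were called. At an unadjusted p under 0.05 there were 30 pairs (6.68%) against 11% of all events. Of the pairs in Ttn and Neb 12 of 133 were called, and of skipped exons 10 of 1480. The same groups differed in the sum of adipocyte markers, with means of 441 TPM on the ground and 237 TPM in flight. Without the third ground sample, 3 pairs were called, all in Tnnt3.

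The stronger of the 2 was the 41-base pair printed above, a swap near the end of troponin T for which 7 annotated transcripts hold the first exon, 14 the second and 1 neither. PSI of the first exon was 0.516, 0.534 and 0.522 on the ground and 0.577, 0.656 and 0.611 in flight, on 15623 to 26959 reads. Every flight sample lay above every ground sample. The mean rose by 0.0905, from 0.524 ± 0.00902 to 0.615 ± 0.0398 (adjusted p = 0.000163). In the gastrocnemius it was 0.576 ± 0.0361 on the ground and 0.616 ± 0.0234 in flight with overlapping groups (adjusted p = 0.437, ΔPSI 0.0405, interaction adjusted p = 0.743). Flight values thus lay close together in the 2 muscles, at 0.616 and 0.615, while the ground value of the quadriceps was lower than that of the gastrocnemius by less than the test could call (adjusted p = 0.14, ΔPSI -0.0516).

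The other pair joins N-terminal exons of 15 and 15 bases (chr7:142504250-142504264 and chr7:142505516-142505530). An annotated transcript holds both of these exons between the flanks, so PSI is again a balance of junction reads. PSI was 0.304, 0.309 and 0.333 on the ground and 0.387, 0.468 and 0.526 in flight, on 850 to 1454 reads. The flight samples lay above all ground samples, and the mean rose by 0.145 from 0.316 ± 0.0152 to 0.46 ± 0.0697 (adjusted p = 0.00248). In the gastrocnemius the means were 0.323 ± 0.0362 and 0.393 ± 0.0515 (adjusted p = 0.263, ΔPSI 0.0701). As in the gastrocnemius, limma on the log2 ratio called 0 pairs, with 13 at an unadjusted p under 0.05 and an adjusted p of 0.537 for both Tnnt3 pairs. The count was 3 without ground sample 1, 1 without ground sample 2, 6 without flight sample 1, and 1 without flight sample 2 or 3, each time with the 41-base pair still called.

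The pairs that came next in the quadriceps did not pass and were read thinly. Kif21a, a kinesin motor, measured 0.302 ± 0.146 on the ground and 0.646 ± 0.266 in flight (adjusted p = 0.109, no overlap) on 8 to 33 reads. Cct4, a partner of Cct7 in the chaperonin ring, measured 0.696 ± 0.0867 and 0.432 ± 0.0197 (adjusted p = 0.271), with no overlap between the groups, and 0.631 ± 0.0766 and 0.456 ± 0.0907 in the gastrocnemius, where they overlapped. In several others the third ground sample was the lowest or highest of its group. Slc9a8, a sodium-proton exchanger, measured 0.5, 0.577 and 0 on the ground and 0.909, 0.688 and 0.75 in flight. Vrk3, a pseudokinase, measured 0.6, 0.28 and 0 on the ground and 0.762, 0.5 and 0.656 in flight. Zfr, an RNA-binding zinc finger protein, had 0.069, 0.16 and 0.423 on the ground. In each of these the third ground sample lay farthest from the flight samples. None of these pairs gained a call without that sample or in any other alternative. Rbm26, Rufy1, Snx17 and Kmt2e were the other pairs named by p, with adjusted p from 0.137 to 0.35.

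PSI was higher in flight in 248 of the 449 quadriceps pairs and lower in 201, with a median ΔPSI of 0.00877 against 0.00368 over all events and a median absolute ΔPSI of 0.0566 against 0.054. Samples of flight and ground did not overlap in 49 pairs (10.9%), beside 12.8% of all events. No pair was called in both muscles. Limma on the log2 ratio had no calls in either, so it could not show a shared one. The test of the difference itself, the flight effect in the quadriceps minus that in the gastrocnemius, called 0 of 440 pairs while 0.249% of all 2011 events passed. It had 25 pairs at an unadjusted p under 0.05 and a smallest adjusted p of 0.315 for Rbm26, and limma on the log2 ratio called 0 with 13 at an unadjusted p under 0.05. Without the third ground quadriceps sample it was again 0, and without the third flight quadriceps sample it was 1, Rbm26. A call in a single muscle therefore does not show that the muscles responded differently.

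**Figure D3:**
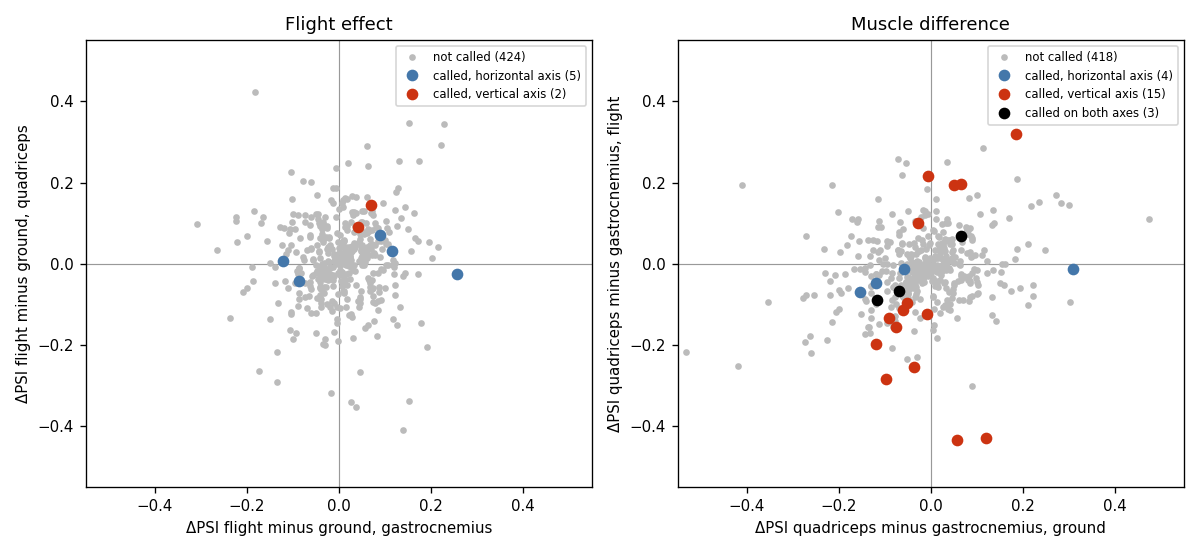
ΔPSI of each pair tested in all comparisons, flight minus ground (left, gastrocnemius across and quadriceps up) and quadriceps minus gastrocnemius (right, ground across and flight up); each point is a pair, coloured by the comparison that called it. No pair is called on both axes at left, and 3 are at right.

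Tnnt3 held more of these pairs than any other gene, 28 pairs formed by 13 exons of 12 to 117 bases, so most of its pairs share an exon or differ only in their flanking exons. Fast troponin T anchors the troponin complex to tropomyosin, and its N-terminal exons are known to be combined in many ways during development and between muscles. The junctions of Tnnt3 were among the most deeply read, with mean reads per pair on the ground from 42.7 to 38256 in the gastrocnemius. Mean PSI spanned 0.087 to 0.972 across the 28 pairs in ground gastrocnemius and 0.0586 to 0.965 in ground quadriceps. In flight 23 of 27 tested pairs had higher PSI in the gastrocnemius and 19 of 27 in the quadriceps, with median ΔPSI of 0.0174 and 0.024, a description of overlapping pairs. At an unadjusted p under 0.05 there were 5 pairs in the gastrocnemius and 8 in the quadriceps, beside 11.2% and 11% of all events. Groups did not overlap in 4 pairs in the gastrocnemius and 5 in the quadriceps, beside 16.2% and 12.8% of all events. The most deeply read pair, exons of 114 and 110 bases at chr7:142512036-142512149 and chr7:142512256-142512365, had 0.528 ± 0.0345 on the ground and 0.471 ± 0.0516 in flight in the quadriceps (adjusted p = 0.0709, ΔPSI -0.0566, groups overlapping), and 0.542 ± 0.0196 and 0.515 ± 0.0672 in the gastrocnemius (adjusted p = 0.791). It passed in the quadriceps without ground sample 1 or flight sample 1 (lowest adjusted p = 0.00352). There it also passed with p adjusted over mutually exclusive exons alone. In the gastrocnemius it passed without flight sample 3 (adjusted p = 0.00617). The whole gene measured 14670 ± 123 TPM in ground and 16680 ± 548 TPM in flight gastrocnemius, and at 21224 ± 865 and 23419 ± 690 in the quadriceps, a log2 change of 0.18 and 0.14 that limma did not call (adjusted p = 0.245 and 0.52).

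**Figure D4:**
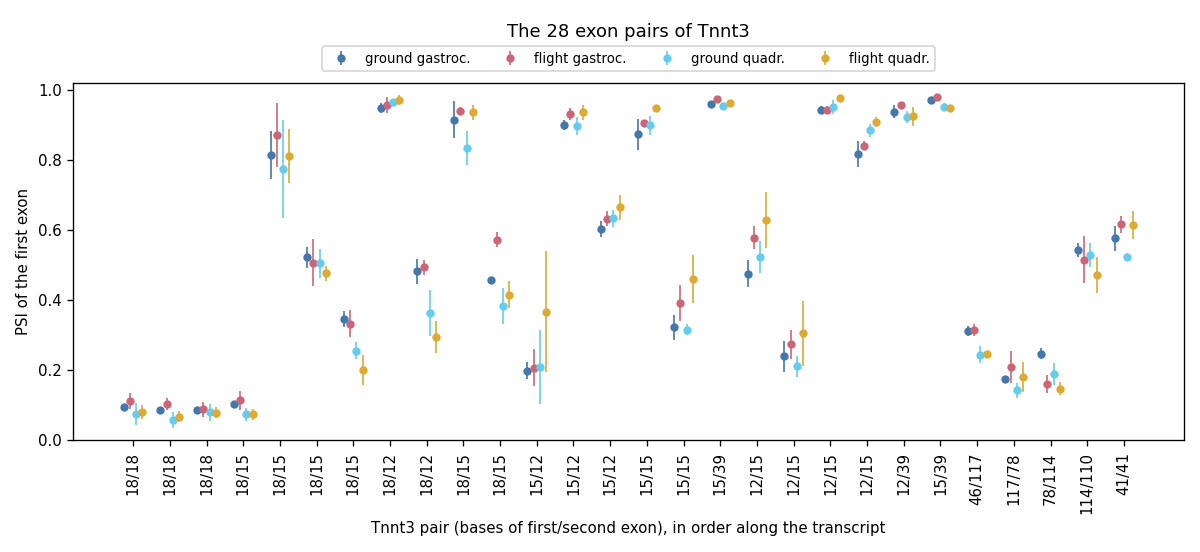
PSI of the first exon (fraction) of the 28 Tnnt3 pairs in order along the transcript, labelled by the bases of the first and second exon; points are group means and bars SD of 3 samples. Pairs with the same label differ in position or in flanking exons, and the pairs of short N-terminal exons span nearly the whole scale while those of the core exons lie below 0.65.

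The muscles were compared in a fit of all 12 samples, apart from the fits of flight within a muscle, so the counts of the 2 kinds are not set against each other. On the ground, 7 of 440 pairs differed between quadriceps and gastrocnemius, 2 with higher and 5 with lower PSI in the quadriceps. That is 1.59% of the pairs beside 7.61% of all 2011 events. The same groups differed in markers of other cell types, and a further marker set is not reported here. Adipocyte sums were 182 to 263 TPM in the gastrocnemius and 324 to 601 TPM in the quadriceps. Smooth muscle sums were 167 to 186 TPM and 124 to 142 TPM. The 7 called pairs included 3 of Tnnt3, 1 of Trdn and 1 of Metap1d. Their count was 8 without the third quadriceps sample and 16 without the first. Limma on the log2 ratio called 3 of the 7.

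Trdn encodes triadin, which holds the calcium release channel in place at the junction of sarcoplasmic reticulum and T-tubule. PSI of its 33-base exon against a 60-base exon (chr10:33158246-33158278 and chr10:33175769-33175828) was 0.302, 0.259 and 0.222 in ground gastrocnemius and 0.154, 0.143 and 0.138 in ground quadriceps, on 1918 to 3938 reads. All quadriceps samples were lower, by a ΔPSI of -0.116 (adjusted p = 0.000451). In flight the pair again differed, with 0.211 ± 0.0397 in the gastrocnemius and 0.122 ± 0.0362 in the quadriceps (ΔPSI -0.0894, adjusted p = 0.0021). The ground call held in every alternative that was run. The other 9 pairs of Trdn were not called in any comparison, and mean PSI over its 10 pairs ran from 0.204 to 0.68 in ground gastrocnemius.

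Metap1d, a mitochondrial methionine aminopeptidase, had 0.529, 0.444 and 0.375 in ground gastrocnemius and 0.8, 0.791 and 0.688 in ground quadriceps, on 17 to 43 reads. All quadriceps samples were higher (ΔPSI 0.31, adjusted p = 0.00817). The call was lost with limma on the log2 ratio (adjusted p = 0.0976) and without the third ground gastrocnemius sample. In flight the means were 0.628 ± 0.0403 and 0.615 ± 0.149. Of the Tnnt3 pairs, the core exons of 46 and 117 bases measured 0.313 ± 0.0141 in ground gastrocnemius and 0.245 ± 0.0243 in ground quadriceps, lower in all 3 quadriceps samples (ΔPSI -0.0685, adjusted p = 0.00367), a call lost without the second ground quadriceps sample (adjusted p = 0.0621). In flight they measured 0.315 ± 0.0166 and 0.247 ± 0.00396 (ΔPSI -0.0672, adjusted p = 0.0107), so that the muscles differed by nearly the same amount with and without flight.

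In flight, 18 of 440 pairs in 13 genes differed between the muscles, 6 with higher and 12 with lower PSI in the quadriceps, or 4.09% beside 8.01% of all events. Markers of other cell types differed between these groups too, and a further marker set is not reported here. Smooth muscle sums were 193 to 211 TPM in the gastrocnemius and 127 to 172 TPM in the quadriceps. Macrophage sums were 26.9 to 36.9 TPM and 37.7 to 49.9 TPM. Limma on the log2 ratio called 10, of which 9 were among the 18. Without the third ground quadriceps sample, which enters this fit only through the shared spread and the filter, the count was 26. It was 12 without flight gastrocnemius sample 1, 9 without sample 2, 9 without flight quadriceps sample 1 and 8 without sample 2. Called in both muscle comparisons were 3 pairs, 2 in Tnnt3 and 1 in Trdn.

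Tnnt3 led again, with 5 called pairs. For its 18- and 12-base exons (chr7:142504048-142504065 and chr7:142505288-142505299), PSI in flight was 0.514, 0.496 and 0.471 in the gastrocnemius and 0.348, 0.269 and 0.27 in the quadriceps. All quadriceps samples were lower (ΔPSI -0.198, adjusted p = 5.16e-05). Selenow, a small selenoprotein abundant in muscle, measured 0.25, 0.242 and 0.247 in flight gastrocnemius and 0.15, 0.107 and 0.143 in flight quadriceps, lower in all 3 (ΔPSI -0.113, adjusted p = 9.31e-05). Metap2, the cytosolic methionine aminopeptidase, measured 0.357, 0.375 and 0.276 against 0.6, 0.636 and 0.727, higher in all 3 quadriceps samples (ΔPSI 0.319, adjusted p = 0.00379). These 3 pairs kept their calls in every alternative that was run.

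The largest differences came from thinly read pairs. Rbm26, an RNA-binding protein, had 0.6 ± 0.0494 in flight gastrocnemius and 0.167 ± 0.25 in flight quadriceps, on 11 to 35 reads (ΔPSI -0.433, adjusted p = 0.00955, all 3 quadriceps samples lower). Atxn1, a nuclear repressor, had 0.676 ± 0.0882 and 0.247 ± 0.0778 on 16 to 22 reads (ΔPSI -0.428, adjusted p = 0.00987, all 3 lower), in exons outside the coding sequence. Xirp2, the gene with the long exon, had 2 called pairs. Its exons of 149 and 90 bases measured 0.216 ± 0.0495 and 0.12 ± 0.0353, lower in all 3 quadriceps samples (ΔPSI -0.0964, adjusted p = 0.00779). The pair with the long exon measured 0.39 ± 0.0343 and 0.49 ± 0.0196, higher in all 3 (ΔPSI 0.101, adjusted p = 0.0438), and lost its call in 6 of 12 runs with 1 sample left out. The other called genes were Ccdc186, Flot1, Txlnb, Gm29253, Rab28 and Ric8b. ΔPSI was negative in Ccdc186 (-0.284), in Flot1, a lipid raft scaffold (-0.253), and in Txlnb, a muscle taxilin (-0.123). It was positive in Gm29253, a predicted gene (0.216), in the GTPase Rab28 (0.195) and in Ric8b, a chaperone of G protein subunits (0.193). With 1 sample left out, Ccdc186, Txlnb and Rab28 lost the call in 4 of 12 runs and Flot1, Gm29253 and Ric8b in 5. Rbm26 lost it in 2 of 12, and Atxn1 in 2 of the 11 runs that tested it. All of these genes but Ric8b also lost the call with limma on the log2 ratio.

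The pairs annotated as exclusive gave the plainest view of a choice. Of the 25, 0 were called by the quasi-binomial test in the gastrocnemius (2.6% of all events), with 4 at an unadjusted p under 0.05 and a smallest adjusted p of 0.109, and 0 of 23 in the quadriceps (1.16% of all events), with 2 at an unadjusted p under 0.05 and a smallest adjusted p of 0.425. Between the muscles 0 of 24 were called on the ground (7.61% of all events) and 0 of 24 in flight (8.01%), with 1 at an unadjusted p under 0.05 in each. Limma on the log2 ratio called 0 of all tested pairs in either flight comparison. Most of these pairs had a mean of under 100 reads per sample. The flight values stood clear of the ground values in 6 of 25 pairs in the gastrocnemius and 4 of 23 in the quadriceps, beside 16.2% and 12.8% of all events.

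The direction of choice was sharp in several. Slc25a3 used the first exon of its pair almost alone, with 0.976 ± 0.00268 in ground gastrocnemius, 0.959 ± 0.0111 in flight gastrocnemius, 0.988 ± 0.0129 in ground quadriceps and 0.972 ± 0.00927 in flight quadriceps. In Rbfox1, a splicing regulator of muscle and brain, PSI of the 40-base exon known from brain was 0.109 ± 0.039 and 0.171 ± 0.0538 in the gastrocnemius and 0.0878 ± 0.0237 and 0.164 ± 0.0275 in the quadriceps, so the 43-base exon known from muscle prevailed. The flight samples of the quadriceps lay above the ground samples, with an adjusted p of 0.704. Mef2d, a MEF2 factor of muscle gene programs, kept its second exon, with PSI of 0.154 ± 0.0228, 0.189 ± 0.0267, 0.113 ± 0.0538 and 0.0952 ± 0.0172 in the 4 groups in the same order. Mef2a was balanced, from 0.469 ± 0.149 to 0.59 ± 0.137, and Mef2c, whose 144- and 138-base pair has 3 annotated transcripts with neither exon, ran from 0.341 ± 0.0466 to 0.378 ± 0.0491.

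The kinase pairs of Mapk8 and Mapk9 both favoured the second exon. PSI of Mapk8 ran from 0.12 ± 0.0586 to 0.232 ± 0.205 over the 4 groups and that of Mapk9 from 0.0254 ± 0.0246 to 0.0956 ± 0.104. Rab6a also used mainly its second exon, at 0.0438 to 0.0932. Dnm2 used mainly its first, at 0.754 ± 0.111 on the ground and 0.917 ± 0.0722 in flight in the quadriceps, where the groups did not overlap and the adjusted p was 0.431. P4ha1 was split almost evenly, with group means from 0.453 ± 0.0982 to 0.57 ± 0.0386. P4ha2, its sister gene, ran from 0.329 ± 0.137 to 0.494 ± 0.168. Actn4, an actin crosslinker of non-muscle cells, ran from 0.745 ± 0.0759 to 0.944 ± 0.0962 on 4 to 29 reads and was tested in the gastrocnemius only (adjusted p = 0.88). Ubr2, a ubiquitin ligase of the N-degron pathway, measured 0.17 ± 0.0361 and 0.251 ± 0.0941 in the gastrocnemius and 0.165 ± 0.0277 and 0.254 ± 0.146 in the quadriceps (adjusted p = 0.572 and 0.739). In Itga7, the laminin receptor of muscle fibers, PSI was 0.344 in ground and 0.107 in flight gastrocnemius, with no overlap between the groups and an adjusted p of 0.405.

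**Figure D5:**
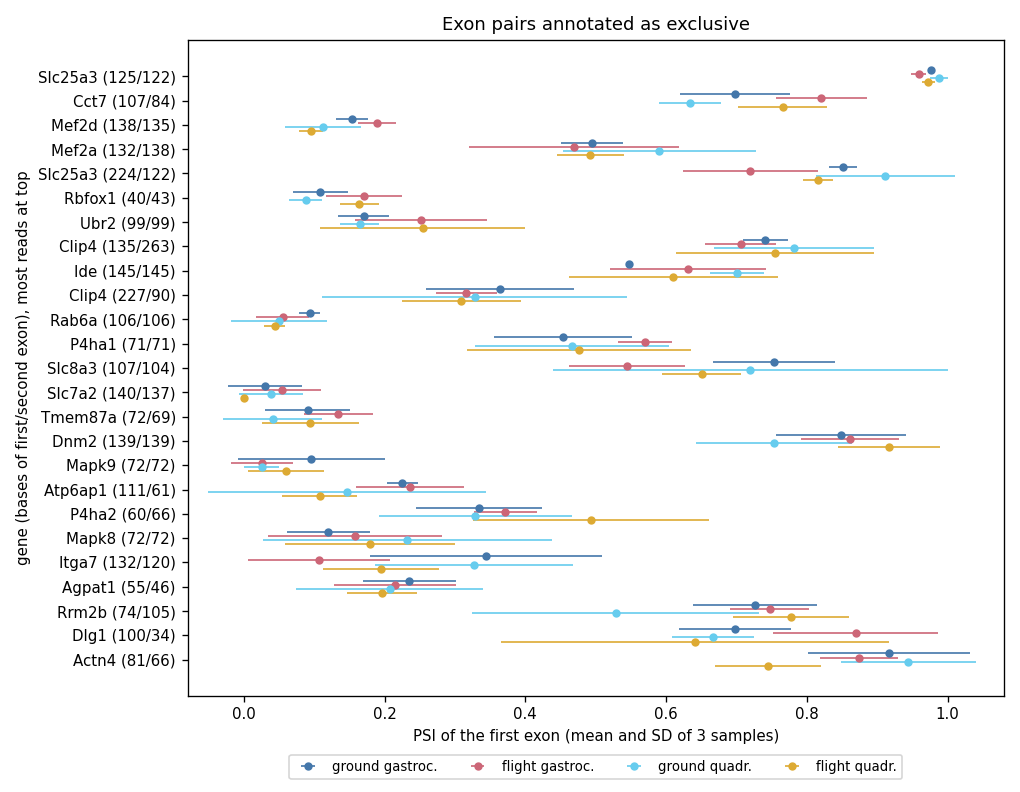
PSI of the first exon (fraction) of the 25 pairs annotated as exclusive, 1 line per pair with the bases of both exons, ordered by junction reads with the most at the top; points are group means and bars SD of 3 samples. Slc25a3 lies near 1, Rbfox1, Rab6a, Mapk9 and Slc7a2 lie near the low end in all 4 groups, and bars lengthen towards the bottom, where reads are few.

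Gene lists describe where the pairs lie. In the sarcomere and thin filament list, 7 genes held 46 pairs, 28 of them in Tnnt3. Calls in this list were 2 of 45 in the gastrocnemius (2.6% of all events), 2 of 44 in the quadriceps (1.16%), and 5 of 46 between the muscles both on the ground (7.61%) and in flight (8.01%), with median ΔPSI by flight of 0.0158 in the gastrocnemius and 0.0159 in the quadriceps. All 4 calls by flight were Tnnt3 pairs, which share exons or flanks. Tpm2, the beta tropomyosin, measured 0.667 ± 0.00321 and 0.677 ± 0.0145 in the gastrocnemius and 0.665 ± 0.0104 and 0.691 ± 0.0125 in the quadriceps, with adjusted p of 0.88 and 0.652. Myh4, the fastest myosin heavy chain, measured 0.378 ± 0.0191 and 0.355 ± 0.0188 in the gastrocnemius and 0.366 ± 0.0295 and 0.372 ± 0.0495 in the quadriceps. In Myom1, an M-band protein, PSI was 0.281 ± 0.0404 and 0.244 ± 0.0344, then 0.212 ± 0.0345 and 0.21 ± 0.0518. In Nrap, an anchor of thin filaments, it was 0.403 ± 0.03 and 0.471 ± 0.0455 in the gastrocnemius, without overlap and with an adjusted p of 0.37, and 0.356 ± 0.0633 and 0.418 ± 0.0165 in the quadriceps.

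In the list of Z-disc, PDZ-LIM and actin cytoskeleton genes, 9 genes held 18 pairs. Of these 3 were called in the gastrocnemius (Xirp2, Sorbs2 and Pdlim7; 2.6% of all events), 0 of 15 in the quadriceps (1.16% of all events) with 2 at an unadjusted p under 0.05, 0 of 16 between the muscles on the ground (7.61%) with 3, and 2 of 16 in flight (8.01%). The list's median ΔPSI in the gastrocnemius was 0.0559, with 12 pairs higher and 6 lower, and 0.00691 in the quadriceps. Limma on the log2 ratio called none of its flight differences in either muscle, a count of 0. Myot, a Z-disc protein, measured 0.714 ± 0.0305 and 0.668 ± 0.0219 in the gastrocnemius and 0.645 ± 0.0429 and 0.691 ± 0.018 in the quadriceps, with overlap in both. In the list of excitation-contraction coupling, channels and calcium, 9 genes held 20 pairs, 10 of them in Trdn. None of these 20 was called by flight, beside 2.6% of all events in the gastrocnemius and 1.16% in the quadriceps, with 5 and 1 at an unadjusted p under 0.05 (11.2% and 11% of all events), and limma called 0 for both muscles. Between the muscles 1 was called on the ground (7.61% of all events) and 1 in flight (8.01%), both times the Trdn pair. Jph2, which bridges the triad membranes, measured 0.808 ± 0.0154 and 0.811 ± 0.0261 in the gastrocnemius and 0.873 ± 0.0201 and 0.846 ± 0.0223 in the quadriceps. Clcn1, the muscle chloride channel, and Cacna2d1, a calcium channel subunit, had means of 0.616 to 0.677 and 0.376 to 0.415.

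The lists of RNA-binding, ubiquitin, transcription, mitochondrial and kinase genes held few pairs and 0 calls in any of the 5 comparisons by the quasi-binomial test or by limma. These lists do not cover every gene of their kind. The genes Rbm26, Atxn1 and Metap1d, called between the muscles above, stand in none of them. Over all events, the quasi-binomial test called 2.6% and 1.16% by flight, 7.61% and 8.01% between muscles and 0.249% for their difference, so lists this small would hold few calls or none at the same share. An unadjusted p under 0.05 was met by 11.2% of all events in the gastrocnemius and 11% in the quadriceps. RNA-binding and splicing genes held 7 pairs in 6 genes, with 1 at an unadjusted p under 0.05 in the gastrocnemius and 0 in the quadriceps. Mbnl1, a splicing regulator of muscle maturation, was in that list at 0.0532 ± 0.0271 and 0.109 ± 0.0159 in the gastrocnemius, where flight samples lay above ground samples (adjusted p = 0.4). Pcbp2, an RNA-binding protein of the KH domain family, measured 0.187 ± 0.0409 and 0.25 ± 0.0164 there. Ubiquitin and proteasome genes held 6 pairs in 5 genes, with 1 and 2 at an unadjusted p under 0.05, among them Usp15 in the quadriceps at 0.556 ± 0.136 and 0.434 ± 0.0657. Transcription and chromatin genes held 16 pairs in 12 genes, with 2 and 0. Mitochondrial and metabolic genes held 10 pairs in 7 genes, with 4 and 1. Of these, the phosphorylase kinase subunits had lower PSI in flight gastrocnemius without overlap, Phka1 at 0.288 ± 0.0111 and 0.206 ± 0.0562 (adjusted p = 0.224) and Phkg1 at 0.698 ± 0.0418 and 0.608 ± 0.0353 (adjusted p = 0.234). Kinases, phosphatases and signalling genes held 6 pairs in 5 genes, with 0 and 0.

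The list of textbook switch pairs held 44 pairs in 14 genes, of which 28 lay in Tnnt3, and all its calls were Tnnt3 pairs. They numbered 2 of 43 tested in the gastrocnemius (2.6% of all events), 2 of 41 in the quadriceps (1.16%), 3 of 43 between the muscles on the ground (7.61%) and 5 of 43 in flight (8.01%). The genes that the study itself described for a mutually exclusive event held 32 pairs in 4 genes. Since the study chose them on these samples, their counts are not independent evidence. Calls were again those of Tnnt3, 2 of 31 tested by flight in either muscle, 3 of 32 between the muscles on the ground and 5 of 32 in flight, beside the same shares of all events. Ubap1, a subunit of the sorting machinery for ubiquitinated cargo, had 0.691 ± 0.115 on the ground and 0.425 ± 0.0678 in flight in the gastrocnemius, with no overlap and an adjusted p of 0.211, and 0.638 ± 0.166 and 0.672 ± 0.106 in the quadriceps. Usp14, a deubiquitinase of the proteasome, had 0.853 ± 0.0677 and 0.903 ± 0.044 in the gastrocnemius and 0.755 ± 0.0644 and 0.886 ± 0.0681 in the quadriceps (adjusted p = 0.634 and 0.384). The study's own test, by rMATS-turbo on the same samples, passed Ubap1 in the gastrocnemius and Usp14 in the quadriceps. The adjusted p given here come from a different test, the quasi-binomial one.

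Expression of the host genes was a readout that the definition of the pairs did not use. Of 376 host genes, 374 were in the expression table and 373 passed its filter. In limma, 0 of the 373 were called between flight and ground in the gastrocnemius, with 1.5-fold required beside an adjusted p under 0.05, where 0.229% of all 10481 genes were, and 0 in the quadriceps, where 0.0286% were. At an unadjusted p under 0.05 the gastrocnemius had 66 host genes (17.7%) and the quadriceps 42 (11.3%), against 15.1% and 10.8% of all genes. The median log2 change was 0.04 and 0.05 against 0.02 and 0.01 over all genes. Xirp2 measured 825 ± 35.6 TPM in ground and 659 ± 109 TPM in flight gastrocnemius (log2 change -0.34, adjusted p = 0.273, all 3 flight samples lower), and Pdlim7 at 247 ± 3.84 and 243 ± 17.8 (log2 change -0.03, adjusted p = 0.893). Sorbs2 was at 104 ± 6.25 and 98.5 ± 6.2 TPM (log2 change -0.07, adjusted p = 0.713). Without flight gastrocnemius library 1, 3 host genes passed: Ndufb8, Nnt and Pknox2.

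The libraries had the markers of their tissue. All 12 skeletal muscle markers were measured, and their summed level ran from 85965 to 92090 TPM in the gastrocnemius and from 103724 to 115256 TPM in the quadriceps, led by Myh4. Markers of other cell types were present at low levels and none of them was called in either muscle by limma. The summed level of 7 adipocyte markers, led by Fabp4, was 601, 396 and 324 TPM in ground quadriceps and 219, 206 and 286 TPM in flight quadriceps, so all flight libraries lay below all ground libraries. The median log2 change of the 6 that were tested was -1.09 there and -0.15 in the gastrocnemius, whose sums overlapped at 182 to 263 TPM on the ground and 182 to 240 TPM in flight. The 5 smooth muscle markers, led by Smtn, summed to 186, 184 and 167 TPM in ground gastrocnemius and 193, 207 and 211 TPM in flight gastrocnemius, again without overlap. The sums of blood markers (led by Hba-a2), macrophage markers (Lyz2) and endothelial markers (Pecam1) overlapped between flight and ground in both muscles, and no marker was at 0 in all libraries. A further marker set was measured and is not reported here, either between flight and ground or between the muscles. In bulk muscle, fewer cells of a type and less RNA per cell cannot be told apart, and the part of these cell types in the splicing differences was not tested.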

How the data were processed

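The authors aligned the reads to mm10 (GRCm38) with STAR 2.7.1a and listed splicing events with rMATS-turbo, whose version is not given in the sources used here. The deposited tables hold junction read counts of both forms and their effective length, as lists of 3 unnamed samples per group in 1 cell, so the planned count test on plain count columns was replaced. The tables also hold the authors' PSI, its difference between groups, p-values and FDR, which were not used. The deposited TPM values were made by the authors with kallisto 0.46.0 and summed per gene. PSI was recomputed from reads and lengths. Each event was fitted by a quasi-binomial model, with its dispersion moderated by limma 3.58.1 (squeezeVar, robust, trend on reads) in R 4.3.3 (tables by Python 3.11.15 with pandas 2.3.3), over all skipped and mutually exclusive exons, with two-sided p adjusted by Benjamini-Hochberg. Muscle differences and their interaction came from a fit of all 12 samples, which ignores that both muscles share mice. Expression was tested by limma with a trend on log2(TPM + 1), for genes over 5 TPM in at least 1 library. Fold changes on this scale understate those of low genes. Exon classes and sequences came from the GRCm38 genome with GENCODE vM21, exons up to 400 bases were aligned globally, and positions are 1-based. Named pairs are, per flight comparison, the called pairs and the next by p up to 10 genes, called pairs between muscles, and 1 pair per gene of the lists, up to 4 examples in the longer lists. The members and lists were chosen with earlier results of these data known. The tests were tested on simulated data. Alternatives covered the test, the filters, the adjustment, the ΔPSI threshold, the pseudocount, the scaling, a replicate block and each sample left out.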

Additional observations from a re-analysis of the deposited data

How the results depend on the processing

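Each count of called pairs was recomputed under the alternatives. In the gastrocnemius it went from 5 to 0 with limma on the log2 ratio and to 3 with an absolute ΔPSI over 0.1, and from 1 to 7 with 1 sample left out. In the quadriceps it went from 2 to 0 and 1 under the same settings and from 1 to 6 with 1 sample left out. The muscle difference on the ground gave 3 and 4 against 7, and 5 to 16 with 1 sample left out. That in flight gave 10 with limma against 18, and 8 to 26. The difference of the flight effect between muscles gave 0, with 25 pairs at an unadjusted p under 0.05, and 0 to 1 with 1 sample left out, the 1 being Rbm26 without flight quadriceps sample 3. Host genes gave 0 in both muscles, 0 to 3 in the gastrocnemius and 0 to 0 in the quadriceps with 1 library left out. Of 113 comparisons of named pairs, 24 were called. Of these, 20 lost the call in at least 1 setting, 17 of them with limma on the log2 ratio, and 4 kept it in all. Of those not called, 5 gained a call in at least 1 setting, and 0 reversed. Moderating the dispersion without the robust option was chosen after seeing the data and gave 4, 2, 6, 18 and 0 calls. The cause of these differences was not tested.

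DESeq2 on the junction reads was not run. No paired analysis was possible because the junction lists carry no sample names. For expression, the fit with a replicate block gave 0 called host genes in both muscles, with 48 and 26 at an unadjusted p under 0.05. Ground and flight libraries with the same number come from different mice. Within a muscle they did not deviate together (r across genes of -0.143, 0.111 and 0.00287 in the gastrocnemius and -0.139, -0.0653 and -0.18 in the quadriceps). The number therefore does not pair ground with flight. Between the muscles, libraries of the same condition and number come from the same mouse, which this check did not compare. Pairs with few reads spread widely: at a mean of at most 20, the median SD of PSI was 0.102 in the gastrocnemius and 0.167 in the quadriceps against a median absolute ΔPSI of 0.0745 and 0.0993.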

Other observations

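Tacc2, a protein tied to centrosomes and microtubules, had 7 pairs made from 4 exons of 102 to 5121 bases, all with lengths divisible by 3. Mean PSI over its pairs ran from 0.0476 to 0.92 in ground gastrocnemius. None of the 7 was called by flight by the quasi-binomial test or by limma, beside 2.6% of all events in the gastrocnemius and 1.16% in the quadriceps by the former, and 0 were at an unadjusted p under 0.05 (11.2% and 11% of all events). So few pairs could hold none at those shares. Among the annotated exclusive pairs, Slc8a3, a sodium-calcium exchanger, measured 0.753 ± 0.0865 on the ground and 0.544 ± 0.0827 in flight in the gastrocnemius, without overlap (adjusted p = 0.283), and 0.72 ± 0.28 and 0.65 ± 0.0564 in the quadriceps. The insulin-degrading enzyme Ide, with 2 exons of 145 bases, measured 0.547 ± 0.00459 and 0.631 ± 0.11 in the gastrocnemius (adjusted p = 0.799) and 0.701 ± 0.0388 and 0.61 ± 0.148 in the quadriceps. These values describe pairs that did not pass.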
